A study of Mus musculus with 4 samples.

Results

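The Lx to Lx6 LINE-1 elements are the loci of the LINE tables whose repeat name is Lx, or Lx followed by a digit from 2 to 6, with or without a suffix. They carried 13 names, from Lx and Lx2A1 to Lx3_Mus and Lx6, and all belonged to the L1 family of the repeatmasker annotation. In total, 19650 of the 145916 listed LINE loci met this rule. The most frequent names were Lx5 with 3663 loci, Lx6 with 3358 and Lx with 2854. The loci were mostly short pieces, with a median width of 517 bp, an interquartile range of 274 to 942 bp and a longest locus of 6872 bp.

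RNA-seq was performed on 4 libraries from C57BL/6J mice, 1 for each group. WT and Lsh-/- fibroblasts were SV40-transformed cultures from adult tail-tips, so each genotype is 1 transformed line carrying the viral antigen. WT and Lsh-/- E13.5 embryos were whole embryos, labelled WT and Lsh-/- although the study's methods speak of heterozygous and homozygous tissue. Nothing states whether a library pooled embryos. With 1 library per group there is no replicate check, no test of genotype was made, and every interval printed covers counting error or the spread of loci within these libraries only.

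LINE-1 elements are retrotransposons that copy themselves through RNA, from an internal promoter at their 5′ end and with the proteins of 2 open reading frames. Most genomic copies are truncated at the 5′ end and have no promoter of their own, so reads on them often belong to a transcript that began elsewhere. Lx elements are an old murine LINE-1 family that stopped amplifying long ago, unlike the younger L1Md elements, and their copies have diverged enough for reads to map uniquely. Lsh, encoded by Hells, is a chromatin remodelling ATPase of the SNF2 family that is needed for DNA methylation at repeats.

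Sequences of 4 whole elements outside genes are shown here because they rose or fell most among the short loci named below. They were read from mm9, 5′ to 3′ on the strand of the element, with each CpG dinucleotide, the site of DNA methylation, in capitals. The Lx at chr12:116165619-116165888 (minus strand) was above 5 on the log2 scale, Lsh-/- over WT, in both tissues and holds 1 CpG. The Lx4A at chr9:98680739-98680916 (minus strand) was above 5 in fibroblasts, was not tested in embryos and holds 4 CpGs. The Lx3C at chrX:100219587-100219666 (minus strand) and the Lx4B at chr13:74693999-74694148 (plus strand) were below −5 in 1 tissue and hold 0 CpGs.
Lx, chromosome 12: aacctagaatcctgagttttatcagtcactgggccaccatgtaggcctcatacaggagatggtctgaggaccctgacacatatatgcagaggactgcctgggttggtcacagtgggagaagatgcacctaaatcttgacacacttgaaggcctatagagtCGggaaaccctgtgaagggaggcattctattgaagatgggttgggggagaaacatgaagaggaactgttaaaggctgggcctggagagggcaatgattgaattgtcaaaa
Lx4A, chromosome 9: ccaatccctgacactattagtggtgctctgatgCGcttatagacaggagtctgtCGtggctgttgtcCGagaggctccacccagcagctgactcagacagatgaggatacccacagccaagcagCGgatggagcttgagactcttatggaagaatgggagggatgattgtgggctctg
Lx3C, chromosome X: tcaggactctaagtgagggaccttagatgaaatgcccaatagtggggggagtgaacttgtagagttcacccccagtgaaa
Lx4B, chromosome 13: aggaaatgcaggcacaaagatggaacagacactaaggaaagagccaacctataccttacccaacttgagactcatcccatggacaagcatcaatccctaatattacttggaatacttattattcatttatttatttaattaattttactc

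The libraries held 19216257 to 33904311 counts over all tables and 456109 to 855043 counts on LINE loci, of which Lx to Lx6 loci took 12.2% to 14.6%. The 2 intervals over Hells exons that were at 0 in both Lsh-/- libraries had 937 counts in WT fibroblasts and 427 in WT embryos, and all 15 Hells intervals together had 7971 and 6356 counts in the fibroblast pair and 3198 and 2110 in the embryo pair. Intervals over 8 of 10 fibroblast genes summed to 158198 and 127968 counts in WT and Lsh-/- fibroblasts. Vim held 110360 and 73319 of these, Col1a1 22146 and 14051, and Fn1 19418 and 27930. Col3a1 held 4188 and 9082, Pdgfrb 1834 and 3331, and Col1a2 241 and 213. Dcn held 11 and 42, and Lum was at 0 in both, so these last 2 markers were absent or nearly so. In the same cultures the epithelial, blood, liver and muscle lists each summed to at most 45 counts. The neuronal list went from 850 to 410, nearly all on Tubb3. Of the 2 endothelial genes, Cdh5 went from 7 to 447 and Pecam1 held 0 and 1 counts. In embryos the liver genes Afp and Alb summed to 3160 counts in WT and 376 in Lsh-/-, whereas the muscle list held 14814 and 14766. In bulk tissue fewer cells of a type and less RNA per cell cannot be told apart. The part of these differences in the results on Lx to Lx6 loci was not tested.

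With at least 10 counts in the fibroblast pair, 292 Lx to Lx6 loci had reads in Lsh-/- cells only and 28 in WT cells only. Of 14058 LINE loci with that minimum, 1209 and 145 did. Before the minimum the numbers of listed Lx to Lx6 loci were close, with 8366 in WT and 8578 in Lsh-/- fibroblasts. Among the 12808 loci listed in at least 1 fibroblast library, 1931 held 10 or more counts in the pair and are called tested loci. Their log2 fold change, Lsh-/- over WT, had a median of 0.21 (95% interval 0.14 to 0.29), so the typical locus barely moved. The upper tail was heavy, with 605 loci (31.3%) above 1 and 358 (18.5%) below −1, where all LINE loci had 24.1% and 18.2%. Above 5 lay 298 loci, which is 15.4% (13.9 to 17.1) and compares with 8.74% of all LINE loci, and below −5 lay 28 loci (1.45%, all LINE loci 1.04%).

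The limit of 5 mostly separates loci without WT reads from the rest. Of the 298 loci above it, 292 had 0 counts in WT fibroblasts and 296 had 0 or 1. Together they had 10 WT counts and 12140 Lsh-/- counts, with a median of 18 and a maximum of 490 counts per locus in the Lsh-/- library. With a count of 0 placed at 3 counts, the upper limit that a count of 0 allows, 26 loci remained above 5. A rule that uses the counting error itself was added after the data were seen and asks whether the whole 95% interval of a locus's fold change lies beyond 1. By that rule 351 loci (18.2%, 16.5 to 19.96) were higher and 54 (2.80%, 2.15 to 3.63) lower in Lsh-/- fibroblasts, against 10.5% and 2.17% of all LINE loci. The intervals treat loci as separate, although neighbouring loci can lie in 1 transcript.

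Other LINE-1 groups in the same libraries bracketed these values. The younger L1Md elements had 27.7% of tested loci above 5 (24.97 to 30.7), L1_Mur and L1_Rod elements had 12.8% (10.5 to 15.4) and Lx7 to Lx10 elements had 7.42% (6.39 to 8.60). IAP loci, which are LTR retrotransposons, had 81.1% above 5. The groups also differed in position. Outside annotated genes lay 665 of 1931 tested Lx to Lx6 loci and 416 of 941 L1Md loci. For Lx7 to Lx10 these were 410 of 2156 and for all LINE loci 2955 of 14058. Outside genes the shares above 5 were 38.8%, 53.8%, 31.0% and 34.4% in that order. In introns they were 3.41%, 7.10%, 1.57% and 1.86%. No test across libraries stands behind the order of the groups.

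Position with respect to genes separated the loci far more than their names did. Outside annotated genes, 665 loci were tested in fibroblasts and their median was 1.77 (1.33 to 2.36), with 258 (38.8%, 35.2 to 42.6) above 5, compared with 34.4% of all LINE loci outside genes. In introns, 1143 loci were tested, their median was −0.14 (−0.24 to −0.05), and 39 (3.41%, 2.51 to 4.63) were above 5, compared with 1.86% of all LINE loci in introns. Scaling by the total of all tables turned the intronic median to 0.54. The 120 loci over exons had a median of 0.24 (0.03 to 0.50) and 1 locus above 5. Counts on tested loci outside genes went from 20859 to 28773, whereas intronic counts were 17219 and 16621. Of the counts outside genes, 14729 in WT and 8328 in Lsh-/- were on 1 Lx5 on chromosome 3. That locus carries a copy of Rps20, described below, and it fell while the sum rose.

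**Figure D1:**
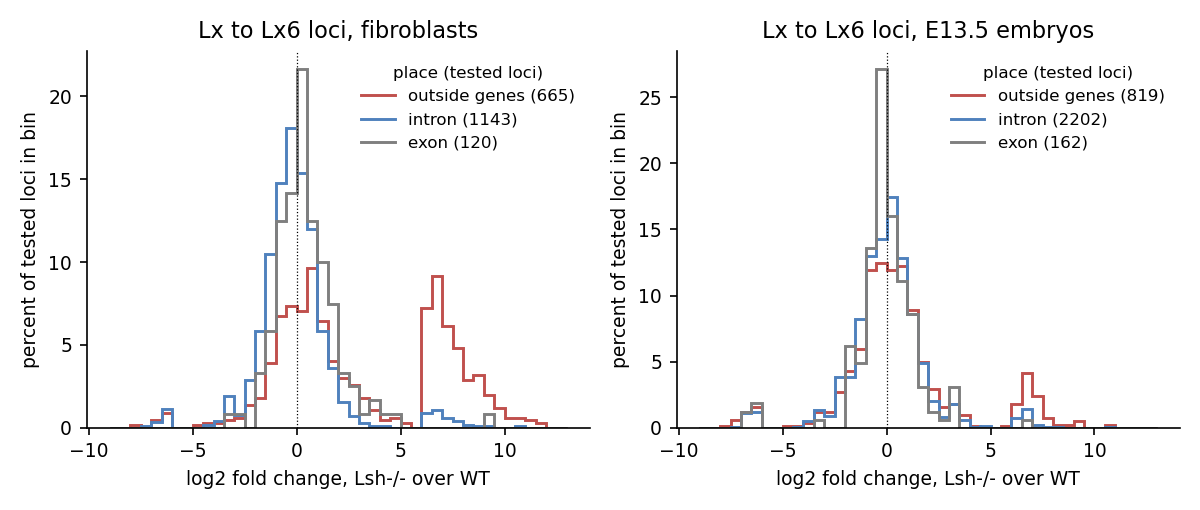
The percent of tested Lx to Lx6 loci in each bin of log2 fold change (bin width 0.5, Lsh-/- over WT) is drawn for loci outside genes, in introns and over exons, in fibroblasts (left) and E13.5 embryos (right). Loci outside genes form a second mode above 5 in fibroblasts, while intronic loci centre near 0. The empty stretch before the second mode comes from the count minimum and the prior count together. A locus with 0 counts in WT needed 10 in the Lsh-/- library to be tested. With the prior count of 0.125 such a locus had a log2 fold change of about 6.32.

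Intronic loci lay mostly antisense to their gene, as 69.3% of all listed intronic Lx to Lx6 loci did. The 807 antisense loci tested in fibroblasts had a median of −0.17 and the 302 sense loci −0.08, and their intervals overlapped (−0.26 to −0.05 and −0.30 to 0.04). The share above 5 was 2.60% for antisense and 4.30% for sense loci. Whether the deposited counts used read strand is not stated, so these are positions and not transcribed strands.

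By name group, the share of tested fibroblast loci above 5 ran from 11.02% for Lx4 (7.69 to 15.6) to 19.4% for Lx2 (15.5 to 24.1). Lx lay at 17.3%, Lx3 at 17.7%, Lx5 at 12.6% and Lx6 at 14.1%, with overlapping intervals. The order of the groups depended on the settings. With at least 50 counts Lx4 lay at 23.1% and Lx5 was lowest at 10.6%, and with a prior count of 1 Lx4 lay at 4.08%, Lx3 at 3.71% and Lx5 at 2.89%. Lx3A had 21 of 69 tested loci above 5 (30.4%, 20.8 to 42.1) and Lx3_Mus 18 of 146 (12.3%, 7.94 to 18.6), so names with the same digit differed as much as the groups (these 2 names were picked after their values were seen). Outside genes, 46 of 80 Lx loci (57.5%, 46.6 to 67.7) and 24 of 94 Lx4 loci (25.5%, 17.8 to 35.2) were above 5, and the intervals of these groups did not overlap.

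**Figure D2:**
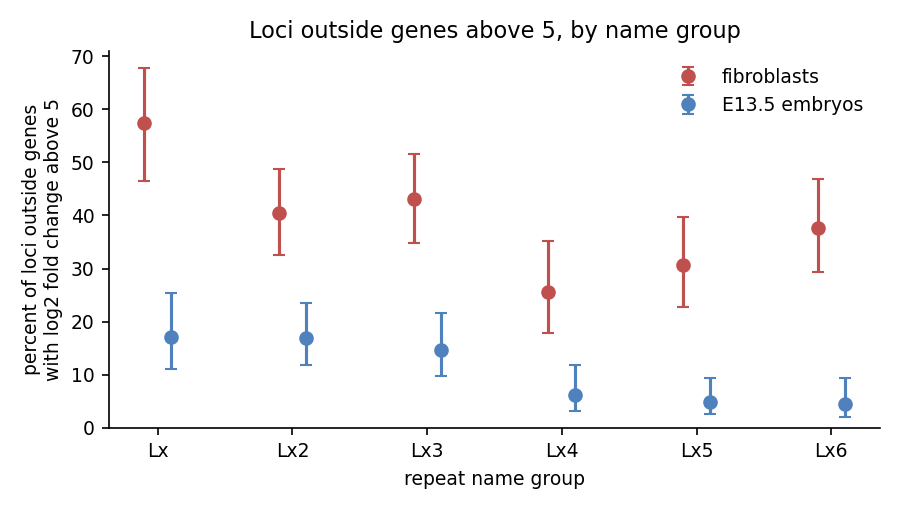
Points give the percent of tested loci outside genes whose log2 fold change was above 5, by name group on the x axis and tissue by colour, and bars are 95% Wilson intervals over loci. Fibroblast values run from 25.5% for Lx4 to 57.5% for Lx, and embryo values from 4.48% for Lx6 to 17.1% for Lx.

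The largest single rises in fibroblasts were on elements outside genes. The Lx at chr4:118578355-118581442, which lies 7687 bp from the olfactory receptor gene Olfr1329, went from 3 to 490 counts between WT and Lsh-/- fibroblasts, and from 5 to 71 between the embryo libraries. Its log2 fold change was 7.25 in fibroblasts (95% counting interval 5.75 to 9.59) and 3.85 in embryos (2.59 to 5.55). Both Lsh-/- libraries were thus above their WT partners, and the fibroblast rise was the larger by value.

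The Lx4A at chr9:98680739-98680916, 178 bp long and shown above, went from 1 to 458 counts in fibroblasts (log2 fold change 8.63, 6.31 to 14.10). In embryos it held 0 and 3 counts and was not tested. The Lx5 at chr8:58030832-58031411 (minus strand) went from 0 WT counts to 433 in the mutant fibroblasts, at least 139.8-fold higher when 0 is placed at 3 counts, and 0 and 24 counts in embryos. It lay 1 bp from an IAPLTR1_Mm locus that was itself above 5.

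Falls below −5 in fibroblasts involved few counts. The Lx4B at chr13:74693999-74694148 went from 26 to 0 counts (8.95-fold lower with 0 placed at 3 counts), and in embryos it had 6 and 20. The Lx4A at chr7:141258328-141260337, in an intron of the metalloprotease gene Adam12 and antisense to it, went from 18 to 0. The Lx at chr10:42984679-42990641, antisense in an intron of Pdss2, whose product acts in coenzyme Q synthesis, went from 15 to 0. Over all 28 loci below −5, WT fibroblasts held 333 counts with at most 26 at a locus, which is far less than the counts on the loci above 5.

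Among loci outside genes that fell by more than 1, those with the most counts were the Lx2B at chr5:13604988-13605643, 2423 bp from the axon guidance gene Sema3a, and the Lx5 at chr5:138789125-138789692. The Lx2B fell from 72 to 24 counts in fibroblasts (log2 fold change −1.63, −2.36 to −0.95) and 63 and 75 in embryos. The Lx5 held 55 and 21 counts in fibroblasts (−1.43, −2.24 to −0.69) and 15 and 65 in embryos (2.16, 1.34 to 3.09). Values for both therefore went down in fibroblasts, and the second went up in embryos.

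In E13.5 embryos the rises were fewer and the 2 directions more even. Of 13932 loci listed in the embryo libraries, 3183 were tested, with a median of 0.05, which is about the value of a locus with equal counts in both libraries. Above 1 lay 760 loci (23.9%) and below −1 lay 647 (20.3%), beside 21.3% and 20.7% of all LINE loci. Above 5 lay 142 loci (4.46%, 3.797 to 5.23) and below −5 lay 86 (2.70%, 2.19 to 3.32), beside 3.09% and 2.89% of all LINE loci. The WT embryo library had 2 counts on the loci above 5 and the Lsh-/- library 3126, and 5 of them stayed above 5 with a count of 0 placed at 3. The whole counting interval lay above 1 at 201 loci (6.31%, 5.52 to 7.21) and below −1 at 124 (3.90%, 3.28 to 4.63), beside 4.5% and 4.34% of all LINE loci.

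A split by position, with the same limits, was also seen in embryos at a lower level. Outside genes 86 of 819 tested loci (10.5%, 8.58 to 12.8) were above 5, beside 8.77% of all LINE loci outside genes, and the median was 0.20 (0.05 to 0.36). In introns 55 of 2202 loci (2.50%, 1.92 to 3.24) were above 5, beside 2.21% of all LINE loci in introns, and the median was 0.05 (−0.02 to 0.05). By name group, loci outside genes above 5 were 18 of 105 for Lx (17.1%, 11.1 to 25.5), 26 of 154 for Lx2 (16.9%, 11.8 to 23.6) and 20 of 136 for Lx3 (14.7%, 9.73 to 21.6). Lx4 had 8 of 128 (6.25%), Lx5 8 of 162 (4.94%) and Lx6 6 of 134 (4.48%, 2.07 to 9.42). The intervals of Lx5 (2.52 to 9.44) and Lx6 lay below those of the first 3 groups.

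In embryos the Lx5 at chr7:55740212-55741562, in an intron of Mrgprx2 and antisense to it, held the most counts among loci above 5. Mrgprx2 encodes a Mas-related G protein-coupled receptor. This Lx5 went from 0 to 247 counts in embryos (85.5-fold higher with 0 placed at 3 counts), and 0 and 50 in fibroblasts (16.1-fold). The Lx3B at chr2:174845929-174846553, 1180 bp from Gm14444, held 0 and 218 counts in embryos (75.4-fold by the same rule) and 0 and 88 in fibroblasts (28.4-fold). The Lx at chr12:116165619-116165888, shown above, held 0 and 193 in embryos (66.8-fold) and 0 and 112 in fibroblasts (36.2-fold). All 3 were at 0 in both WT libraries. In both tissues an RLTR40 locus above 5 touched or overlapped the Lx on chromosome 12. The nearest LTR locus above 5 was an IAPLTR1_Mm for the others, 1015 bp from the Lx5 and 29309 bp from the Lx3B.

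The Lx6 at chrX:8443271-8444722 rose from 62 to 263 counts in embryos (log2 fold change 2.14, 1.73 to 2.56) and had 16 and 41 in fibroblasts (1.30, 0.45 to 2.24). Reads thus lay on it in all 4 libraries, at a higher level in each Lsh-/- library than in its WT partner. In embryos the 1-kb interval at lower coordinates from this Lx6 held 20 and 97 counts, and the one at higher coordinates 8 and 7.

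The embryo loci below −5 with the most counts were the Lx5 at chrX:83062801-83064890, which went from 24 counts to 0, the Lx3C at chrX:100219587-100219666, with 22 and 0, and the Lx5 at chr15:12009857-12010250, with 21 and 0. In fibroblasts these 3 loci held 2 counts at most. Outside genes, the Lx6 at chr16:98294441-98295811 went from 57 to 2 counts (log2 fold change −4.70, −7.86 to −2.86), beside 62 and 41 in fibroblasts. The Lx6 at chr13:73787922-73788405, 1433 bp from the telomerase reverse transcriptase gene Tert, went from 50 to 20 (−1.26, −2.09 to −0.49). The 1-kb interval at lower coordinates from this Lx6 held 73 and 21 counts in the same libraries.

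A set of 32 loci was above 5 in both tissues, which is 10.7% of the 298 fibroblast loci and 22.5% of the 142 embryo loci above 5. Among the 1373 loci tested in both tissues, 51 were above 5 in fibroblasts and 40 in embryos. A locus without WT reads could be tested in both tissues only through 10 counts in each Lsh-/- library, so the count minimum in part fixes these numbers and nothing is read from the 32 of 51 and 40. Above 1 in both tissues were 82 of the 1373 loci, out of 296 in fibroblasts (27.7%) and 229 in embryos (35.8%). Below −1 in both tissues were 48 loci, of 248 in fibroblasts and 228 in embryos. The overlap that these totals alone would give was not computed, so nothing is read from the 82 and the 48. Opposite changes beyond 1 were seen at 35 loci that were higher in fibroblasts and lower in embryos and at 45 with the reverse. With only 11 and 14 loci below −5 and none in common, nothing is read from that overlap. A further 247 of the 298 fibroblast loci above 5 did not reach 10 counts in embryos, and 175 had no embryo count in either library. In embryos the 298 loci together had 1663 WT and 3311 Lsh-/- counts. Likewise, 102 of the 142 embryo loci above 5 did not reach 10 counts in fibroblasts, where the 142 loci together had 183 WT and 2328 Lsh-/- counts.

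**Figure D3:**
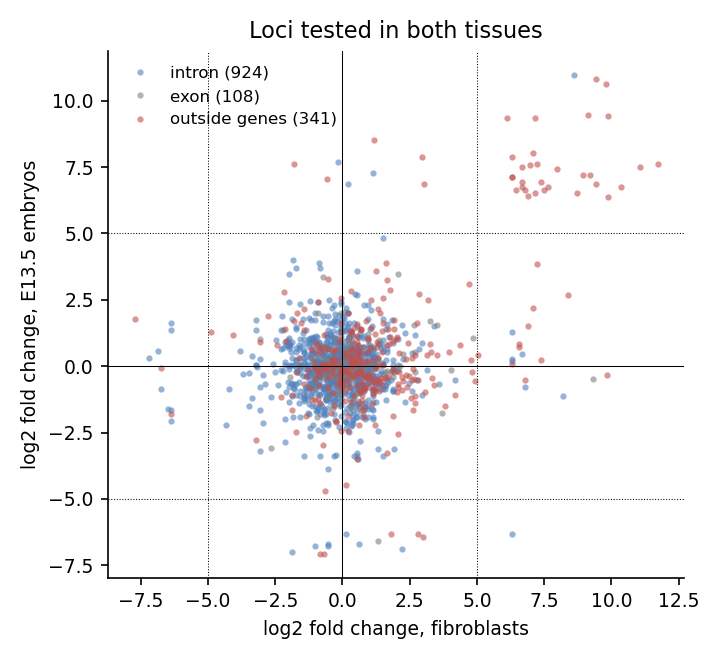
Each point is 1 of the 1373 Lx to Lx6 loci tested in both tissues, placed by its log2 fold change in fibroblasts (x axis) and embryos (y axis) and coloured by position, with dotted lines at 5 and −5. The 32 loci at the upper right are above 5 in both tissues, and no point lies at the lower left below −5 in both.

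The 32 shared loci lay on 11 chromosomes, and 31 of them were outside genes. At 30 of them both WT libraries held 0 counts, and the highest WT count was 1. The rise was larger in fibroblasts at 16 of the 32. Besides those named above, the loci with the most counts were the Lx4A at chr12:120876366-120882108, an element of 5743 bp, and the Lx2B at chr16:80303184-80303777. The Lx4A held 0 and 272 counts in fibroblasts and 0 and 22 in embryos. The Lx2B held 0 and 118 in fibroblasts and 0 and 83 in embryos, and lay 862 bp from an IAPLTR1_Mm locus above 5 in both tissues.

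**Figure D4:**
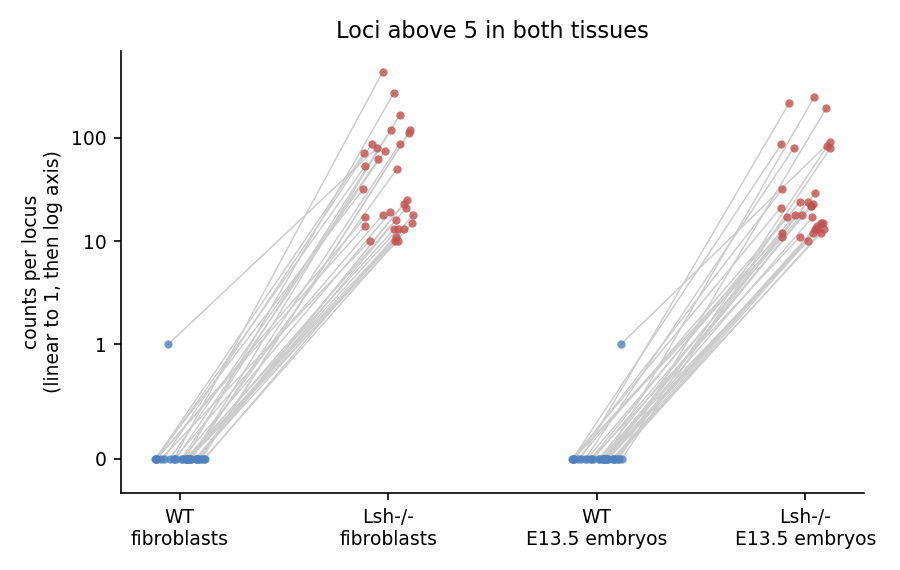
Counts at the 32 loci above 5 in both tissues are plotted for each of the 4 libraries (y axis linear to 1 and logarithmic beyond, with lines joining WT to Lsh-/- within a tissue). All WT points are at 0 or 1, and the Lsh-/- points lie between 10 and 433 in fibroblasts and 10 and 247 in embryos.

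Loci above 5 often lay close to LTR loci that were above 5 as well. In each tissue both sets were called from the same 2 libraries, and reads of 1 transcript can put both above 5. Most of these Lx to Lx6 loci passed the count minimum only through the Lsh-/- library. The same share was not computed for all LINE loci, so it is not shown to be particular to Lx to Lx6. What links the 2 sets was not tested. The LTR contains a promoter and a polyadenylation signal, and IAP loci are the LTR loci described above. In fibroblasts, 104 of the 298 Lx to Lx6 loci above 5 (34.9%, 29.7 to 40.5) were within 10 kb of 1 of the 1269 LTR loci above 5, and for 75 of them the nearest was an IAP locus. Of the other 1633 tested loci 6 were that close (0.37%, 0.17 to 0.80). Outside genes only, the shares were 93 of 258 (36.0%, 30.4 to 42.1) and 2 of 407 (0.49%, 0.13 to 1.77). The median distance outside genes was 34.3 kb for loci above 5 and 642.6 kb for the others.

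Of the 92 fibroblast loci above 5 that were within 10 kb of such an LTR locus without touching it, 69 lay after the LTR locus in its own reading direction and 23 before it. On the same strand as the LTR locus were 38, and 54 were on the opposite strand. Another 108 of the 298 loci had no such LTR locus within 10 kb but did have another LINE locus above 5, from outside the Lx to Lx6 groups. The remaining 86 (28.9%) had neither. Joining loci that were within 10 kb of each other gave 199 clusters from the 298 loci, of which 135 held 1 locus and the largest held 8.

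In embryos, 27 of the 142 loci above 5 (19.01%, 13.4 to 26.2) were within 10 kb of 1 of the 475 LTR loci above 5, beside 4 of the other 3041 (0.13%, 0.05 to 0.34). Outside genes these were 25 of 86 (29.1%, 20.5 to 39.4) and 0 of 733 (upper limit 0.52%). The embryo share within 10 kb depended on the settings, as it was 64.3% with a prior count of 1, 70% with at least 50 counts and 5.17% for all listed loci. Of the 23 that did not touch the LTR locus, 18 lay after it and 5 before it. The 142 loci formed 118 clusters, the largest of 4.

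**Figure D5:**
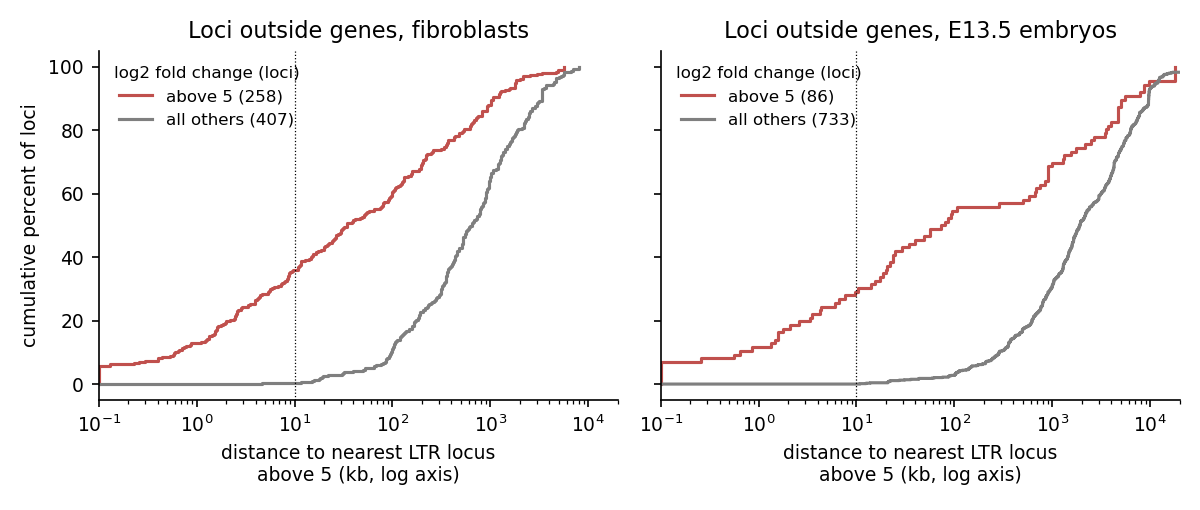
The cumulative percent of tested Lx to Lx6 loci outside genes is plotted against distance to the nearest LTR locus above 5 (kb, log axis, dotted line at 10 kb, distances under 0.1 kb drawn at the left edge), for loci above 5 and all others. By 10 kb the curves reach 36.0% and 0.49% in fibroblasts (left) and 29.1% and 0% in embryos (right).

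Reads on the flanking sequence were compared in the same way. Each table of flanking intervals counts reads on 1 kb of sequence that begins 10 kb to either side of a locus. For the 298 fibroblast loci above 5, the intervals at lower coordinates went from 239 to 4008 counts, and those at higher coordinates from 95 to 5101. Of these 298 loci, 68 had an interval at lower coordinates that was itself above 5 and 70 had one at higher coordinates, while 73 and 81 had an interval with at least 10 counts. Those 10 counts were reached almost only through the Lsh-/- library, so nothing is read from the 68 of 73 and 70 of 81. Around loci that changed by no more than 1, the medians were −0.02 and −0.05, with 1 interval above 5 on each side. Intervals of neighbouring loci overlap, so they are not independent.

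Over all Lx to Lx6 loci the flanking intervals in fibroblasts were above 5 at 761 of 6419 tested intervals at lower coordinates (11.9%, all LINE loci 6.51%) and at 817 of 6545 at higher coordinates (12.5%, all LINE loci 6.62%). In embryos the values were 254 of 8664 (2.93%, all LINE loci 1.94%) and 286 of 8796 (3.25%, all LINE loci 2.01%). Around the 142 embryo loci above 5, 19 of 54 intervals at lower and 19 of 51 at higher coordinates were above 5, with 4373 and 5107 counts in WT and Lsh-/- on the first side and 3112 and 4388 on the second.

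A single locus held a large part of the Lx to Lx6 counts. The Lx5 at chr3:119410156-119415256 (plus strand) had 14729 WT and 8328 Lsh-/- counts in fibroblasts, and 21689 and 16166 in embryos. It alone took 25.2% (24.9 to 25.6) of all Lx to Lx6 counts in WT fibroblasts and 12.5% to 18.7% in the other libraries. Its log2 fold change was −0.87 (−0.91 to −0.83) in fibroblasts and −0.37 (−0.40 to −0.34) in embryos. Without it the summed Lx to Lx6 level went from 2241 to 2885 counts per 1000000 scaled counts in fibroblasts and from 3488 to 3587 in embryos. With it the fibroblast values were 2997 and 3299, and the embryo values 4290 and 4208, so the direction in embryos depends on this locus.

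This Lx5 carries a processed copy of Rps20, which encodes a protein of the small ribosomal subunit. From 119412433 to 119412782 it matched 350 of the 360 bases of the Rps20 coding sequence at 99.7% identity, so the deposited count cannot be split between Rps20 mRNA and this Lx5. The last 150 bases of that match, at chr3:119412633-119412782, are printed on the plus strand with the only differing base in capitals. The difference is G324A, where the first letter is the base of the Rps20 coding sequence, counted from 1 at its start codon.
Lx5, chromosome 3: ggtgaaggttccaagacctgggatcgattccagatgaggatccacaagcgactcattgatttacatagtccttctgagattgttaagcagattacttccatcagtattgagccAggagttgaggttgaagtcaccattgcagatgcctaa

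Of 3738 tested loci searched against 22382 coding sequences, 4 matched at least 80% of the coding sequence of a gene not annotated at the locus at 95% identity or more. The Lx2 at chr1:168360948-168362626 matched all of Uqcr11, a subunit of respiratory complex III, and held 289 and 277 counts in WT and Lsh-/- fibroblasts and 360 and 343 in embryos. The Lx at chrX:99018421-99025098 matched H3f3a, which encodes histone H3.3, and held 49 and 52 counts in fibroblasts and 171 and 128 in embryos. The fourth, an Lx in Ptprn2, matched the predicted gene Gm10282 and held at most 7 counts. These 3 loci were named for the match after their values were seen.

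Most other loci with high counts lay in transcribed genes. The Lx at chr11:82791899-82793661, over an exon of Slfn9, a member of the Schlafen family, held 1323 and 994 counts in fibroblasts (log2 fold change −0.46, −0.58 to −0.34) and 1002 and 810 in embryos (−0.25, −0.39 to −0.12). Scaling by the total of all tables turned its fibroblast value to 0.22. The Lx at chr12:110899486-110899721, over an exon of the imprinted noncoding RNA gene Rian, held 4 and 10 counts in fibroblasts and 4476 and 3025 in embryos (−0.51, −0.58 to −0.44). The Lx3B at chr17:13015865-13018502, in the imprinted noncoding RNA gene Airn, held 128 and 106 counts in fibroblasts and 1035 and 951 in embryos (−0.07, −0.20 to 0.06). The Rian locus thus had a fall of less than 1 on the log2 scale in embryos, and the interval of the Airn locus included 0.

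The Lx2 at chr1:40519256-40519459, over an exon of Il1rl1, the interleukin-33 receptor gene, held 584 and 267 counts in fibroblasts (−1.18, −1.39 to −0.96) and 18 and 22 in embryos. It lies antisense to that exon. Its 1-kb interval at lower coordinates held 423 and 205 counts in fibroblasts, and the one at higher coordinates 2 and 0. The Lx3B at chr12:88791239-88791443, over an exon of 1810035L17Rik, held 532 and 460 counts in fibroblasts and 730 and 622 in embryos. The Lx6 at chr13:48982998-48983462, in an intron of Fam120a, held 238 and 259 in fibroblasts and 588 and 629 in embryos, with intervals that included 0 in both tissues. The Lx2 at chrX:160411823-160413187, 1567 bp from Car5b, a mitochondrial carbonic anhydrase gene, held 278 and 213 in fibroblasts (−0.43) and 788 and 668 in embryos (−0.18). Under scaling by the total of all tables the fibroblast values of the loci in 1810035L17Rik and near Car5b were 0.42 and 0.25.

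The Lx4B at chrY:383395-385210, 18105 bp from the Y-linked translation factor gene Eif2s3y, had 0 WT and 115 Lsh-/- counts in fibroblasts, and 1043 and 805 in embryos. Both Lx to Lx6 loci tested on chromosome Y in fibroblasts were above 5, with 0 WT and 125 Lsh-/- counts together, so genotype and presence of chromosome Y transcripts cannot be told apart there. On chromosome X, 20.5% of 132 tested fibroblast loci were above 5. Without chromosomes X and Y, 15.0% of loci in fibroblasts and 4.53% in embryos were above 5.

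Width and CpG content overlapped between loci above 5 and the rest. Outside genes in fibroblasts, the share above 5 was 36.7% (31.2 to 42.4) for loci up to 600 bp and 41.5% (27.8 to 56.6) for loci over 2500 bp. Outside genes, fibroblast loci above 5 had a median of 0.36 CpGs per 100 bp (interquartile range 0.19 to 0.52) and loci within 1 of 0 had 0.50 (0.27 to 0.77), and the corresponding embryo medians were 0.34 and 0.41. Over all listed Lx to Lx6 loci the median was 0.42, and 16.5% held no CpG. Outside genes, the loci above 5 thus had a lower median than loci within 1 of 0 in both tissues, with overlapping ranges. Fibroblast loci outside genes from 1 to 5 had a median of 0.34 and those below −1 had 0.40. A low CpG median was therefore not particular to the fibroblast loci above 5. In embryos the medians of these classes were 0.43 and 0.40.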

How the data were processed

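RNA was sequenced from WT and Lsh-/- tail-tip fibroblasts and E13.5 embryos, with 1 library per group. The authors prepared strand-specific paired-end libraries by the dUTP method, mapped reads to mm9 with TopHat 1.4.0 without mismatches in the initial read, kept unique reads and joined them to repeatmasker loci in Galaxy. The deposited values are raw counts per locus or flanking interval, and loci without reads are unlisted, so they were given a count of 0. The labels name total RNA and the methods mRNA. Near-identical copies receive few unique reads.

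The table total ranged from 19216257 to 33904311 counts. Libraries were scaled by TMM (edgeR 4.0.16, R 4.3.3) over the intervals around LINE-1 loci, with a prior count of 0.125 and at least 10 counts in the pair. The interval position was checked on 161 repeats lying 10 to 11 kb from a locus, all of which held no more counts than the interval. Positions are 1-based mm9, and genes are from GENCODE vM1. The 15 loci on unplaced chromosomes were not annotated. Coding sequences were searched with blastn (BLAST 2.17.0). Shares have Wilson intervals, medians order-statistic intervals, and fold changes exact binomial intervals. Statistics used SciPy 1.17.1, and the steps were tested on simulated data.

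Members and gene lists were chosen with earlier results of these data known. Per tissue, named loci are the 3 with the most counts above 5, the 3 below −5, the 2 within 1 of 0, the 2 outside genes above 1 and the 2 below −1, the top locus of each name group, and up to 6 beyond 5 in both tissues. Alternatives were other prior counts, scalings, minima and exclusions.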

Additional observations from a re-analysis of the deposited data

Results flagged for a closer look

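At 3 named loci the fold changes in fibroblasts and embryos had opposite signs, with counting intervals that excluded 0 in both. This difference was not tested over samples, since each group is 1 library. The Lx4B at chr13:74693999-74694148 had a log2 fold change of −7.73 in fibroblasts (26 and 0 counts in WT and Lsh-/-) and 1.77 in embryos (6 and 20). The Lx5 at chr5:138789125-138789692 had −1.43 in fibroblasts (55 and 21) and 2.16 in embryos (15 and 65). The Lx4B at chrY:383395-385210 had 9.82 in fibroblasts (0 and 115) and −0.32 in embryos (1043 and 805), beside the absence of counts on chromosome Y loci in WT fibroblasts.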

How the results depend on the processing

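No paired analysis was possible because each group is 1 library, and for the same reason no replicate could be left out. The prior count set the shares beyond 5. With a prior count of 1, 4.51% of fibroblast and 0.44% of embryo loci were above 5 and 0% below −5 in either tissue, with 29.2% and 22.1% above 1, 16.8% and 17.8% below −1, and an embryo median of 0.047. With a count of 0 placed at 3 counts, chosen after seeing the data, 1.35% and 0.16% were above 5 and 0% below −5. Scaling moved the medians. By LINE table totals the fibroblast median was 0.32, with 33.7% above 1 and 16.4% below −1, and the embryo median 0.080. By the total of all tables the fibroblast median was 0.88, with 46.5% above 1 and 9.37% below −1, so that rises made up 83.2% of changes beyond 1 where the main scaling gave 62.8%, and the embryo median was 0.048. With DESeq2 size factors 16.7% of fibroblast loci were below −1, 21.9% of embryo loci above 1, and the embryo median 0. TMM over intervals with 10 counts, chosen after seeing the data, gave an embryo median of 0.079.

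Without a count minimum both medians reversed, to −0.041 in fibroblasts and −0.14 in embryos. Then 39.9% and 37.3% were above 1, 40.0% and 41.4% below −1, 7.45% and 9.17% above 5, and 4.09% and 8.45% below −5. With at least 50 counts, the fibroblast median was 0.35 with 7.37% below −1, 20% above 5 and 0% below −5. The embryo median was then 0.034, with 10.5% above 1, 5.99% below −1, 1.66% above 5 and 0% below −5. With 1 locus per gene the fibroblast median was 0.32, with 34.4% above 1, 16.0% below −1 and 17.98% above 5. Scaling by all tables also reversed the intronic fibroblast median (0.54) and the fibroblast values of 4 named loci, the Lx in Slfn9 (0.22), the Lx3B in 1810035L17Rik (0.42), the Lx6 on chromosome 16 (0.036) and the Lx2 near Car5b (0.25). Counts of loci above 5 ranged from 57 to 954 in fibroblasts and from 10 to 1277 in embryos, and were 26 and 5 with a count of 0 placed at 3. In all, 566 of 704 alternative values stayed within the interval of the main value. Of these, 508 were secondary values, among them named loci whose intervals are wide or open at 1 end. Among the main medians and shares over all Lx to Lx6 loci, 58 alternative values stayed, 46 moved out of the interval and 2 reversed. Depth limits loci near 10 counts most, since a count of 0 allows up to 3.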
